A study of Mus musculus with 12 samples.

Results

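A set of 5 genes with repeated sequence, with 14 deposited intervals between them, carried more reads per kb than the median gene in the IgG background of mpkCCD cells. They are the ribosomal RNA record NR_046233 (an interval of the 45S precursor), the small RNA gene Rn4.5s, the double homeobox gene Duxf3, the centrosome gene Sfi1 and the pseudogene Pisd-ps3. NR_046233, Duxf3, Sfi1 and Pisd-ps3 have 1 interval each and Rn4.5s has 10, of 33062 intervals in all. The genes were chosen by their read density in these same 6 libraries, that is reads per kb of interval and per total reads, and Rn4.5s also by its difference between the treatments. Their density is therefore given as a description with no test.

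mpkCCD cells are a transformed line of mouse renal collecting duct principal cells, used here as clone 11 at passages 6 to 10. They were grown in 2% dialyzed serum, deprived of serum and harvested 24 h later, with 0.1 nM dDAVP, a V2 receptor-selective vasopressin analog, or its vehicle present throughout. The design held 12 samples, 3 in each of 4 groups, with an antibody against Polr2a or with IgG. Files of the 3 IgG dDAVP and 3 IgG vehicle libraries were used, and the Polr2a libraries were not analysed here. IgG reads are background DNA reads and show no expression, so the cell type could not be checked by marker genes.

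Ribosomal RNA genes lie in long tandem arrays on several mouse chromosomes. RNA polymerase I transcribes each unit into the 45S precursor, which is cut into 18S, 5.8S and 28S RNA. A genome assembly holds few of these units, so reads from many copies in a cell can land on one annotated copy. The same holds for other families of near-identical genes: Dux genes form an array on mouse chromosome 10, and the genes of 4.5S RNA, a small RNA polymerase III transcript of rodents related to the B1 repeat, form one on chromosome 6. Sfi1 encodes a centrin-binding protein of the centrosome. Pisd encodes phosphatidylserine decarboxylase, the mitochondrial enzyme that makes phosphatidylethanolamine, and Pisd-ps1, Pisd-ps2 and Pisd-ps3 are its pseudogenes. Density over an interval therefore cannot be read as the number of copies in the cells, which was not measured here.

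The stretch below shows where the annotated 18S related sequence begins inside the NR_046233 interval, which is chr17:39842997-39848829 on the plus strand in mm10. This is the edge of an annotation, and the first base of mature 18S RNA was not mapped here. RefSeq annotates an 18S related sequence, Rn18s-rs5, at 39846354 to 39848202 in it. That leaves 3357 bases before and 627 bases after it in the interval of 5833 bases. Density, GC content and copy counts of NR_046233 are those of this interval and need not hold for a whole 45S unit. Capitals mark the bases of Rn18s-rs5, and the sequence is chr17:39846294-39846413 of GRCm38.p6.
45S to 18S boundary: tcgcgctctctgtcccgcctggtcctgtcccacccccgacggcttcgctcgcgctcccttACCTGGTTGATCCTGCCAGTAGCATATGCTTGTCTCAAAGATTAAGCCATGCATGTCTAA

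Rn4.5s is shown whole because its 10 intervals, each of 174 bases on the minus strand of chromosome 6, had identical sequence. The first is chr6:47654921-47655094. An 11th identical copy at chr6:47763184-47763357 had no interval in the files. A copy at chr6:47748415-47748591 differs by 3 inserted bases, and one at chr6:47757586-47757759 by 9 substitutions. In those 2 copies capitals mark the bases that differ from the shared sequence (GRCm38.p6).
Rn4.5s, all 10 intervals: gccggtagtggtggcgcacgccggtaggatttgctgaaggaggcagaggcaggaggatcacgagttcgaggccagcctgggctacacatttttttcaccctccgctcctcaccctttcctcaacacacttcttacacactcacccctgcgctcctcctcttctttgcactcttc
Copy with insertion: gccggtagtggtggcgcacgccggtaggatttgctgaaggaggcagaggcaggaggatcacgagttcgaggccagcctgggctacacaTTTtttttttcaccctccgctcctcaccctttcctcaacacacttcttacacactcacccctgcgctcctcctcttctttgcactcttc
Copy with substitutions: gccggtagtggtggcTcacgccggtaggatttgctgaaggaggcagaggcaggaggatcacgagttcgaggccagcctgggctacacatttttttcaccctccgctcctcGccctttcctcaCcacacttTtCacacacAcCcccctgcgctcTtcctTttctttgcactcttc

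Duxf3 (NM_001081954) is a single exon of 2025 bases at chr10:58230651-58232675, minus strand. Only 1 other stretch of the assembly, chr10:58222972-58224996, matched it over its whole length with 37 substitutions and no gap, an identity of 98.2%. The 120 bases with the most substitutions are shown to give the upper end of that divergence. They hold 8, marked by capitals in the second copy, and come from chr10:58231225-58231344 and chr10:58223546-58223665 (GRCm38.p6, minus strand).
Duxf3 interval: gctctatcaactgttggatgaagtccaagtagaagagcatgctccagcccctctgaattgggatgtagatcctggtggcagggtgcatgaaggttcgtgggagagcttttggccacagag
Second copy: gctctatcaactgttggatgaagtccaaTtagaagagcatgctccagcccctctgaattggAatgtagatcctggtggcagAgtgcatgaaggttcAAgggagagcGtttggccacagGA

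Sfi1 (NM_030207) spans 61614 bases with 33 exons at chr11:3131850-3193463, minus strand. Of its 33 exons, 29 had a match of at least 90% identity over at least 80% of their length on the unplaced scaffold JH584304 and 18 had one on chromosome 5. Exons 1 to 4 had none on either. Identity was 94.7% to 100% on the scaffold, with a median of 98.96%, and 90.8% to 98.8% on chromosome 5, with a median of 93.9%. Exon 29, the longest inner exon of up to 200 bases, is shown as an example, with capitals where a copy differs. It lies at chr11:3134318-3134501, and its copies at chrUn_JH584304:50093-50276 and chr5:32733844-32734021 (GRCm38.p6). The scaffold copy has 3 substitutions, and the chromosome 5 copy has 9 and lacks 6 bases.
Sfi1 exon 29: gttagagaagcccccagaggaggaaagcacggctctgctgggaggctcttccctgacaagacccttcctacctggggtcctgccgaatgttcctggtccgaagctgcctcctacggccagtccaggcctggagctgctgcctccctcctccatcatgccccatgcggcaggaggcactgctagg
Scaffold copy: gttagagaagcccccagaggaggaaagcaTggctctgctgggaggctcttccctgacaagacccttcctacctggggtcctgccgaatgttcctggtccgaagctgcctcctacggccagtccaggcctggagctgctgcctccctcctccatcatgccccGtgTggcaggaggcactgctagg
Chromosome 5 copy: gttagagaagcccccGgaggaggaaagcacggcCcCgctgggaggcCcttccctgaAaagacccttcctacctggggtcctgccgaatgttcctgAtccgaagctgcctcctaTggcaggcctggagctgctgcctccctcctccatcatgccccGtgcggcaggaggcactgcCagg

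Pisd-ps3 (NR_003518) spans 7016 bases with 7 exons at chrUn_JH584304:52674-59689, minus strand, on the same scaffold as the Sfi1 copy. All 7 exons had a match on chromosome 11 at Pisd-ps1 (92.9% to 99.3% identity), 6 on chromosome 17 (91.8% to 97.9%), 6 on chromosome 5 (90.9% to 95.2%) and 1 on chromosome 14 (93.2%). Exon 3, at chrUn_JH584304:56986-57151, is shown because it matched at all 3 related genes. The copies in Pisd-ps1 (chr11:3127479-3127644), Pisd-ps2 (chr17:3080869-3081034) and Pisd (chr5:32740624-32740789) have 2, 6 and 9 substitutions, in capitals (GRCm38.p6).
Pisd-ps3 exon 3: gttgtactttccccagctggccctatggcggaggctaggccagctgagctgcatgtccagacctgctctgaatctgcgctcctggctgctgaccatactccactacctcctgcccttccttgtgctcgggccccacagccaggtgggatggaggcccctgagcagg
Pisd-ps1 copy: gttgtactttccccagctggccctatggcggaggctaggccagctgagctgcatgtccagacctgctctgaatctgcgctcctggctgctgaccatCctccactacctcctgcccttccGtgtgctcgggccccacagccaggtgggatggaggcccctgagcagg
Pisd-ps2 copy: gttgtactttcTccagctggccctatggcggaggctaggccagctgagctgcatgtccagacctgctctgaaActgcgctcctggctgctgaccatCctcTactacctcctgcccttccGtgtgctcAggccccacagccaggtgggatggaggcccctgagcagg
Pisd copy: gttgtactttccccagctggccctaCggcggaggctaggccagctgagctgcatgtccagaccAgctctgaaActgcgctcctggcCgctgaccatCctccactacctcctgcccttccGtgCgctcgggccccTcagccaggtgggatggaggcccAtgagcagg

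How often each gene's sequence occurs in the assembly was measured with windows of 50 bases, the read length, counted on both strands. A read from a window found once has 1 exact place in the assembly, and a read from a window found more often has several. The members differed widely. In NR_046233 90.6% of windows occurred once, in Sfi1 53.6%, in Pisd-ps3 38.7%, in Duxf3 37.4% and in Rn4.5s 0%. Over 328 background intervals, every 100th of the files by accession, the median was 99.2%, and 19 (5.79%) lay under 50%. Over the 50 densest other genes the median was 87.9% and 20 lay under 50%. For intervals outside the members that are longer than 2000 bases, the middle 2000 bases were used.

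The ribosomal record was thus nearly single in the assembly, although its gene is among the most repeated in the genome. Its windows occurred at most 3 times. Beside its own interval, 398 of its 5784 windows (6.88%) matched chr6:3200770-3201670, and 91 matched a stretch of 140 bases in Gnb1l on chromosome 16. No full-length second copy was found at 90% identity or more over 80% of the length.

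Rn4.5s was the other extreme, with a median of 14 and a maximum of 46 occurrences per window. On chromosome 6, 16 other places matched the first interval at 94.2% to 100% identity, the other 9 intervals among them. Neighbouring intervals lay 4308 to 4340 bases apart in 7 of the steps, all on the minus strand. The 10 intervals span 98005 bases from the first to the last, with a gap between them: of the 54422 bases after the eighth interval, up to the next related copy, 50000 are unknown in the assembly.

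Duxf3, Pisd-ps3 and Sfi1 lay between these. In Duxf3 the median window occurred 2 times and the most frequent 5 times, and all runs of matches lay within the chromosome 10 array, at 58222972 to 58224996, 58227857 to 58228637 and 58239608 to 58240288. In Pisd-ps3 the median was also 2, with 44.8% of windows matched in Pisd-ps1, 29.9% and 7.92% in 2 runs in Pisd-ps2, and 9.92% in Pisd. In Sfi1 the median was 1, but 41.5% of windows also occurred on the scaffold JH584304, and 1.98% occurred over 50 times in the assembly.

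**Figure D1:**
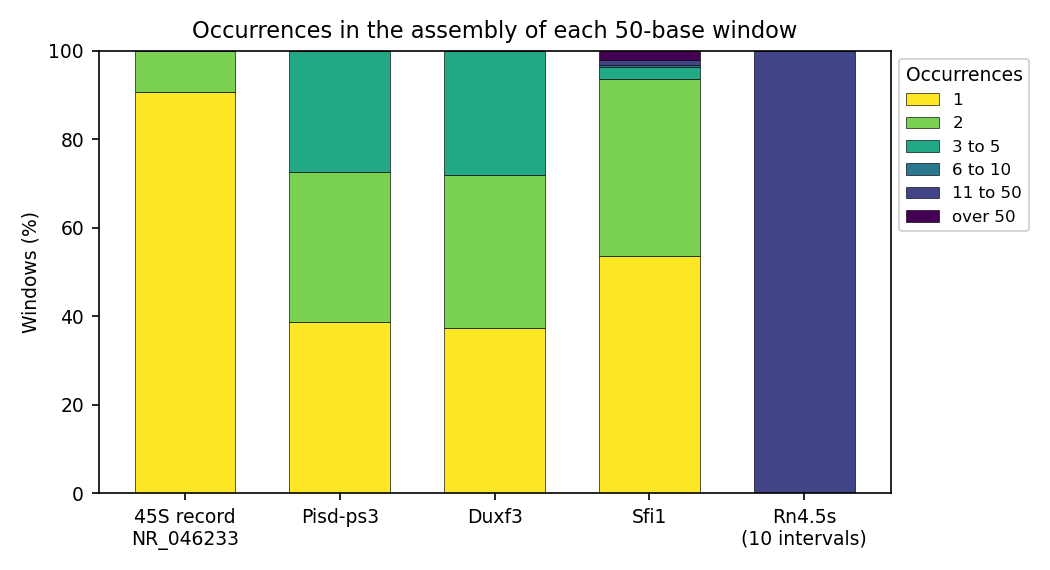
Share of 50-base windows (%) of each gene by the number of times the window occurs in the assembly, on either strand. NR_046233 is mostly found once (90.6%), all windows of Rn4.5s fall in the class of 11 to 50, and Sfi1, Pisd-ps3 and Duxf3 are mixed.

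Totals over all intervals ran from 10588927 to 19748658 reads per library. Counts of experiments 1 and 2 differed by about sampling noise in either treatment, with chi-square over its degrees of freedom of 1.018 for dDAVP and 1.011 for vehicle, so they were joined as 1 sample, and n = 2 per treatment. Where SD is given it is over those 2 samples. No source used here states that the experiments came from separate cultures, so the spread may be technical. dDAVP experiment 3 stood apart: the median density of the most GC-rich of 20 classes of genes was 12.003 times that of the most GC-poor class in it, against 0.396 to 0.802 in the other 5 libraries.

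Density was set over that of the median gene of the same library, with 1 interval per gene. Of 24172 genes, 14 (0.0579%) stood at 10 times the median gene or more in each of the 6 libraries, and 4 of them were NR_046233, Duxf3, Sfi1 and Pisd-ps3. This share is a description, since density chose the members. Among 14609 genes with at least 40 reads in each library, NR_046233 had the highest mean over the libraries (110.5), Pisd-ps3 was the third (27.95), Duxf3 the fourth (27.88) and Sfi1 the seventh (19.35). No density cut was set for the members: Vash1 (28.3) and Angel1 (26.4), which are no members, lay on either side of Pisd-ps3 and Duxf3, and Lrrc74a (17.6) came just below Sfi1.

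The ribosomal record NR_046233 had the highest density of all genes in each library. Experiments 1, 2 and 3 gave it 3901, 3750 and 17109 reads under dDAVP and 2432, 2415 and 2905 under vehicle. Over the median gene that was 84.6, 85.4 and 313.6 under dDAVP and 64.7, 67.8 and 47.1 under vehicle. dDAVP experiment 3 was the highest library and vehicle experiment 3 the lowest, and the treatments did not overlap. The means were 199 ± 162 and 56.7 ± 13.6 (SD, n = 2).

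Its GC content of 64.9% lies in the top of the 20 GC classes, that of genes with at least 56.6% GC. Over the median gene of that class, dDAVP experiments 1, 2 and 3 had 107.2, 105.4 and 119.6 and vehicle experiments 103.2, 100.9 and 84.9. The spread between the 6 libraries was thus far smaller on this scale, and NR_046233 stood at 84.9 to 119.6 times the median gene of its class. The class runs from 56.6% GC upward, so its median gene need not match NR_046233 in GC content. The interval's next neighbours, the exocrine gland-secreted peptide genes Esp15 and Esp38, lie 197329 and 101690 bases away with GC contents of 31.3% and 32.1%. Esp15 stood at 1.11 to 1.81 times the median gene in 5 libraries and at 0.136 in dDAVP experiment 3, and Esp38 at 1.14 to 1.60 and 0.247.

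Duxf3 held 340, 329 and 1488 reads under dDAVP and 209, 204 and 286 under vehicle in experiments 1, 2 and 3. Over the median gene it had 21.2, 21.6 and 78.6 under dDAVP and 16.0, 16.5 and 13.4 under vehicle, means of 50.0 ± 40.4 and 14.8 ± 2.1 (SD, n = 2). dDAVP experiment 3 was again the highest and vehicle experiment 3 the lowest, with no overlap. Over genes of its GC class, at 57.9% GC, the values were 26.9, 26.6 and 29.96 under dDAVP and 25.6, 24.5 and 24.1 under vehicle. The next gene along the array, Gm4981, lies 2172 bases away and stood at 3.13 to 6.02 times the median gene, and the neighbour on the other side, Smpdl3a, 418820 bases away, at 0.730 to 2.11.

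NR_046233 and Duxf3 kept nearly the same proportion in every library. The density of NR_046233 was 3.98, 3.96 and 3.99 times that of Duxf3 under dDAVP and 4.04, 4.11 and 3.53 times under vehicle, by experiment. Its ratio to Pisd-ps3 ran from 2.73 to 5.61 and that to Sfi1 from 2.60 to 14.9, each highest in dDAVP experiment 3. Against Rn4.5s it was 19.7 to 34.5.

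Pisd-ps3 held 1315, 1264 and 3667 reads under dDAVP and 1048, 1016 and 1281 under vehicle. Over the median gene it had 23.7, 23.9 and 55.9 under dDAVP and 23.2, 23.7 and 17.3 under vehicle, means of 39.9 ± 22.7 and 20.4 ± 4.4 (SD, n = 2). The treatments all but touched, under dDAVP experiment 1 and vehicle experiment 2 both at 23.7. Over genes of its GC class, at 52.2% GC, dDAVP had 25.9, 25.6 and 26.3 and vehicle 26.8, 27.8 and 23.1, which overlap.

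The related genes of the family were less dense over their whole intervals. These are of unlike length, 7.92 kb for Pisd-ps1, 19.9 kb for Pisd-ps2 and 49.3 kb for Pisd. Density over the parts shared with Pisd-ps3 was not available, so a link to sharing was not tested. Pisd-ps1, on chromosome 11, stood at 8.89, 8.80 and 18.8 times the median gene under dDAVP and 8.03, 8.59 and 6.48 under vehicle. Pisd-ps2, on chromosome 17, stood at 3.30, 3.52 and 5.76 and at 2.97, 3.31 and 3.06. Pisd itself, of 49.3 kb on chromosome 5, stood near the median gene, at 1.13, 1.14 and 1.64 and at 1.07, 1.09 and 1.012. No other gene of the files lies on the scaffold beside Pisd-ps3.

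Sfi1 held more reads than any other member in each library except dDAVP experiment 3, where NR_046233 held more. It had 9435, 9111 and 12155 under dDAVP and 7490, 7169 and 11781 under vehicle, over its much longer interval. Its density over the median gene was 19.4, 19.7 and 21.1 under dDAVP and 18.9, 19.04 and 18.1 under vehicle, means of 20.3 ± 1.1 and 18.5 ± 0.6 (SD, n = 2). Sfi1 was thus the steadiest of the members, and dDAVP experiment 3 hardly stood out. Its GC content is 46.2%, close to the median of 45.7% over genes, and over its GC class it had 18.6, 19.1 and 19.2 under dDAVP and 18.1, 18.3 and 17.6 under vehicle. Its 3′ end shares 95 bases with Pisd-ps1, whose reads there count in both, and on its other side Eif4enif1, 8889 bases away, stood at 0.354 to 0.945.

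Rn4.5s was the least dense member, ranked 85 to 1195 among all other genes by library, and rests on few reads. Over its 10 intervals together it held 59, 45 and 210 reads under dDAVP and 21, 25 and 43 under vehicle. Over the median gene that was 4.29, 3.44 and 12.9 under dDAVP and 1.87, 2.35 and 2.34 under vehicle, means of 8.38 ± 6.39 and 2.22 ± 0.16 (SD, n = 2). Over its GC class, at 57.5% GC, it had 5.43, 4.24 and 4.92 under dDAVP and 2.99, 3.50 and 4.21 under vehicle. The treatments did not overlap on either scale, though dDAVP experiment 2 and vehicle experiment 3 nearly met on the second. Rn4.5s was chosen by this difference, so the lack of overlap is a description only.

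Single Rn4.5s intervals held 4 to 10 reads in dDAVP experiment 1, 2 to 10 in experiment 2 and 13 to 33 in experiment 3. Under vehicle they held 1 to 4, 0 to 7 and 2 to 7. The variance over the 10 intervals was 0.507, 1.79 and 1.45 times the mean under dDAVP and 0.259, 1.71 and 0.674 times under vehicle, where pure counting gives about 1. In vehicle experiment 2, 2 intervals held 0 reads, which allows up to 3 reads, or 2.82 times the median gene, by counting error only. Since the intervals are identical, a read that lies wholly inside one cannot be told from such a read in another. Reads that reach past an end count too, and the sequence around the intervals was not compared. The neighbouring genes Ezh2 and Pdia4, 59890 and 43215 bases away, stood at 0.132 to 0.963 and 0.695 to 0.852 times the median gene.

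**Figure D2:**
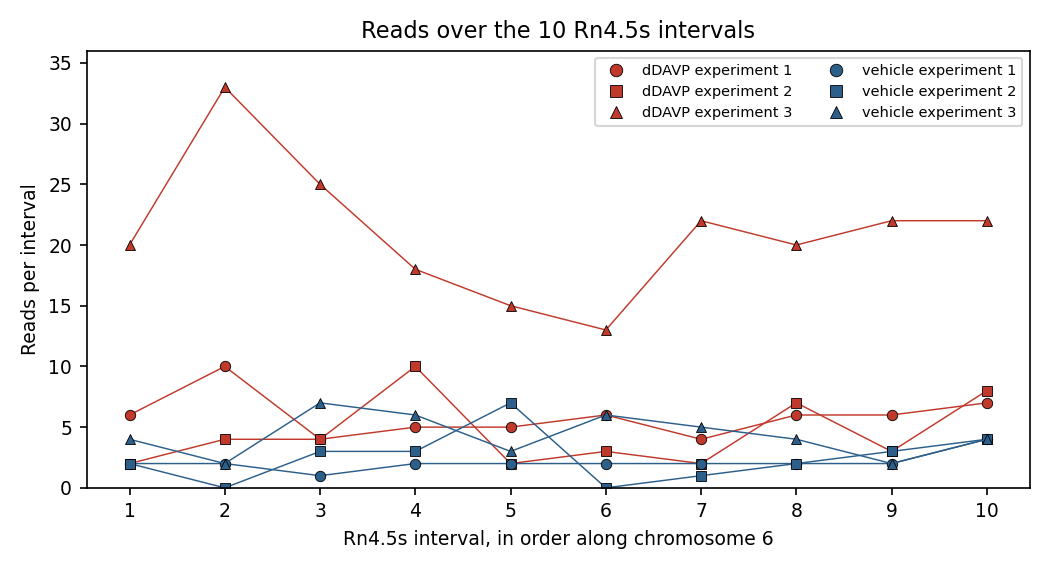
Reads over each of the 10 identical Rn4.5s intervals, in their order along chromosome 6, in the 6 libraries. dDAVP experiment 3 has 13 to 33 reads and lies above the other libraries at every interval, and the other 5 libraries lie between 0 and 10 reads.

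The order of the members changed between libraries. NR_046233 came first and Rn4.5s last in each. Pisd-ps3, Duxf3 and Sfi1 followed in that order in dDAVP experiments 1 and 2, while Duxf3 passed Pisd-ps3 in dDAVP experiment 3. Under vehicle Duxf3 came last but one throughout, behind Pisd-ps3 and Sfi1 in experiments 1 and 2 and behind Sfi1 and Pisd-ps3 in experiment 3. With 2 samples per treatment, the means of Pisd-ps3, Duxf3 and Sfi1 differed by less than an SD of one of the pair under dDAVP, and so did those of Pisd-ps3 and Sfi1 under vehicle. Duxf3 lay below both by more than an SD under vehicle. These SDs are between libraries, while the genes were measured in the same libraries, so they do not measure the spread of the difference. Within a library, Pisd-ps3 was 1.22, 1.22 and 2.65 times as dense as Sfi1 under dDAVP and 1.23, 1.24 and 0.955 times under vehicle, by experiment.

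**Figure D3:**
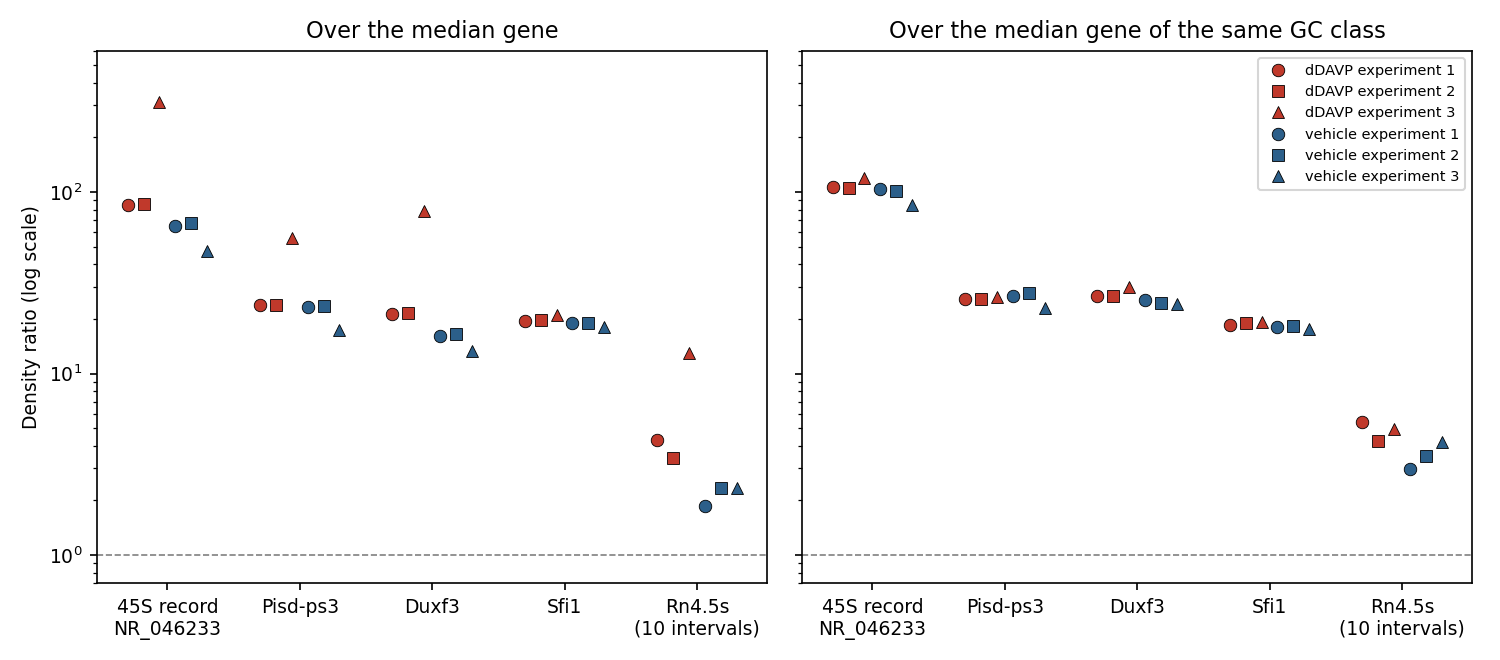
Density of each gene over the median gene (left) and over the median gene of its GC class (right), on a log axis, one point per library, with the dashed line at 1. On the left dDAVP experiment 3 lies above the other 5 libraries, at 314 for NR_046233 and 78.6 for Duxf3, and on the right its values are 119.6 and 29.96, close to the others.

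Reads covered the members to different extents. For NR_046233 99.1% to 100% of bases had at least 1 read, close to the 100% that an even spread of its reads would give. Pisd-ps3 had 97.8% to 99.7%. Duxf3 had 94.0%, 96.5% and 100% under dDAVP and 96.99%, 90.2% and 93.8% under vehicle, where an even spread would give 99.3% or more.

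Sfi1 was covered least among the 4 long members, although an even spread of its reads would have covered 99.7% or more of its bases in each library. It had 85.9%, 85.7% and 67.8% under dDAVP and 80.3%, 81.6% and 88.2% under vehicle. Thus dDAVP experiment 3 had the most reads over Sfi1 and the fewest bases covered. The deposited files give 1 value per interval, so where in Sfi1 the reads lie cannot be read from them, and neither can their spread over the parts shared with the scaffold.

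Rn4.5s had 69.4%, 61.3% and 98.9% under dDAVP and 42.5%, 38.0% and 59.4% under vehicle over its 10 intervals. An even spread would give 71.8%, 57.7% and 98.5% and 36.8%, 37.8% and 59.3%. The covered share was thus near that of an even spread in each library.

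**Figure D4:**
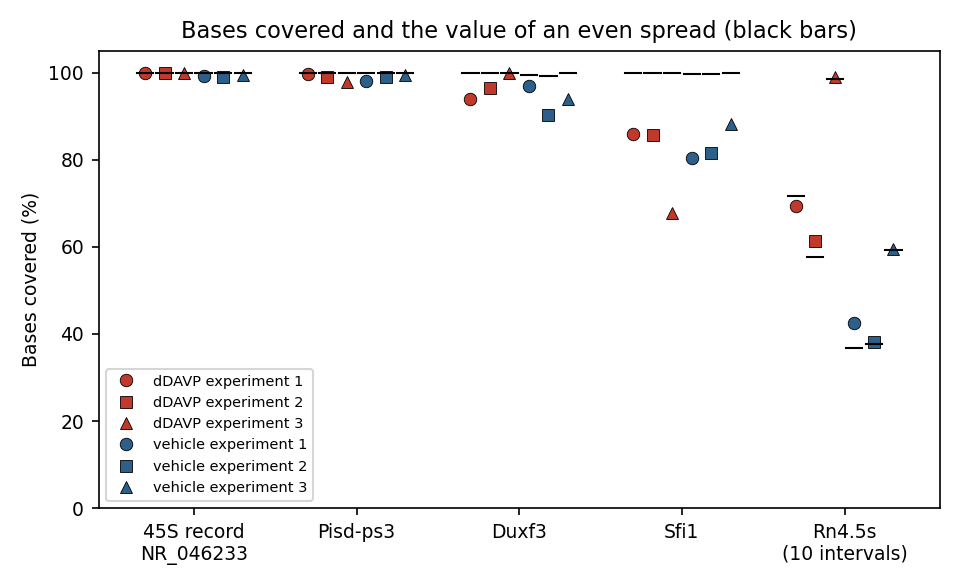
Share of bases with at least 1 read (%) for each gene and library (points), and the share that an even spread of the same number of reads would give (black bars). Sfi1 lies well below its bars, at 67.8% to 88.2%, and Rn4.5s lies near its bars.

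Whether the background over these genes differed between dDAVP and vehicle was asked with edgeR's quasi-likelihood test on all intervals. Every dDAVP library lay above every vehicle library, in density over the median gene, for NR_046233, Duxf3, Sfi1 and Pisd-ps3, as it did for 11.9% of the intervals tested. Over its GC class Pisd-ps3 overlapped between the treatments. The sum of Rn4.5s did not overlap either, but that gene was chosen by this difference, so its value is a description only. No member passed the test, and edgeR called 0 of 30912 intervals (0%) at an adjusted p under 0.05, with 236 at an unadjusted p under 0.05, all with a log2 ratio above 0 (0.763%). DESeq2 called 0 of 32956, with 1082 at an unadjusted p under 0.05.

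NR_046233 had a log2 ratio of dDAVP to vehicle of 1.83 ± 0.70 (SE), with a 95% interval of 0.09 to 3.56 (edgeR, unadjusted p = 0.0422, adjusted p = 0.619). Duxf3 had 1.77 ± 0.64, from 0.19 to 3.34 (unadjusted p = 0.0336, adjusted p = 0.619 in edgeR). These 2 log2 ratios rest on dDAVP experiment 3. Without that library they were 0.61 ± 0.19 and 0.56 ± 0.19 (edgeR adjusted p = 1.00 for both). That fit has 1 dDAVP sample, which is assumed to vary like the 2 vehicle samples. With counts corrected for GC class they were 0.35 ± 0.13 and 0.28 ± 0.14 (edgeR adjusted p = 0.960).

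Pisd-ps3 had 0.98 ± 0.50 (95% interval −0.25 to 2.21, edgeR adjusted p = 0.619), 0.25 ± 0.17 without dDAVP experiment 3 and 0.09 ± 0.13 with the GC correction. Sfi1 had 0.15 ± 0.43 (95% interval −0.92 to 1.22, edgeR adjusted p = 0.841), 0.10 ± 0.23 and 0.08 ± 0.11. Within experiments 1 and 2 alone the log2 ratio of the densities over the median gene was 0.36 for NR_046233, 0.40 for Duxf3, 0.04 for Sfi1 and 0.02 for Pisd-ps3. Within experiment 3 alone it was 2.74, 2.56, 0.22 and 1.69. The log2 ratio was thus larger within experiment 3 for all 4 genes.

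Of the 10 Rn4.5s intervals 4 passed the count filter, and they passed it only through their dDAVP samples. They had the most reads in dDAVP experiments 1 and 2, so their ratios do not stand for all 10. The log2 ratios of these 4 were 3.59, 1.57, 2.06 and 1.67. Without dDAVP experiment 3 they were 2.35, 1.04, 1.29 and 0.93, and with the GC correction 2.16, 0.31, 0.74 and 0.37. No p-value is given, since this contrast chose the gene. The one at 3.59, chr6:47659242-47659415, held 10, 4 and 33 reads under dDAVP and 2, 0 and 2 under vehicle.

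**Figure D5:**
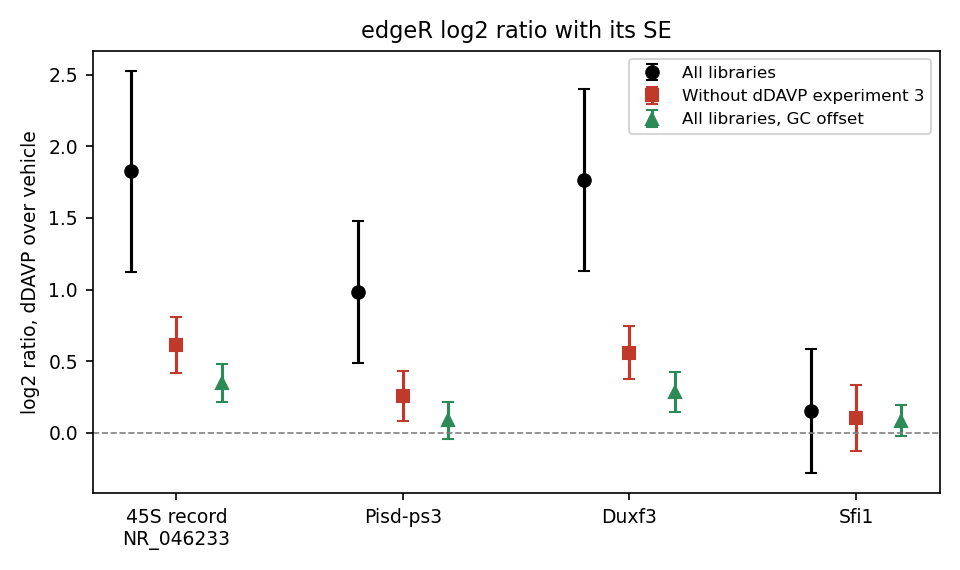
Log2 ratio of dDAVP to vehicle with its SE from edgeR for the 4 genes with 1 interval, with all libraries, without dDAVP experiment 3, and with a GC offset. The ratios of NR_046233 and Duxf3 fall from 1.83 and 1.77 to 0.61 and 0.56 without that library, and those of Sfi1 are 0.15, 0.10 and 0.08 in the 3 fits.

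The genes most like each member across the 6 libraries, by root mean square difference of log2 density over the median gene among genes with at least 40 reads in each, lay mainly on chromosome 12. For Pisd-ps3 they were Vash1 (0.08), Angel1 (0.37) and Lrrc74a (0.68), and for Duxf3 the same 3 at 0.42, 0.73 and 0.78. For Sfi1 they were Lrrc74a (0.18), Angel1 (0.45) and Zdhhc22 (0.46). NR_046233 had no close match: Vash1, Angel1 and Lrrc74a came nearest at 1.78, 1.89 and 2.44. Rn4.5s lay nearest to Gm1995 (0.36), Gm7104 (0.55) and Pisd-ps2 (0.62).

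Genes whose products make or process ribosomal RNA did not share the density of the ribosomal record. All 32 listed genes, such as those of RNA polymerase I and of the nucleolus, had an interval, and 0 stood at 2 times the median gene or more in each library, where 0.335% of all genes did. Their median was 0.956 ± 0.159 times the median gene under dDAVP and 0.905 ± 0.005 under vehicle (SD, n = 2). Among the 20 with at least 40 reads in each library Nolc1, a nucleolar phosphoprotein gene, was highest by mean density at 2.13 ± 0.96 and 1.33 ± 0.20, and Taf1d, of the polymerase I initiation factor, lowest at 0.629 ± 0.189 and 0.805 ± 0.114. Their log2 ratios were above 0 in 17 and below 0 in 15, with a median of 0.07, and edgeR called 0. Over all genes tested they were above 0 in 11353 and below 0 in 11116, with a median of 0.01.

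Of 33 other structural noncoding RNA genes 11 had an interval and none reached 40 reads in each library. Only 1, Mir6236 on chromosome 9, stood at 2 times the median gene or more in each library, at 12.3, 23.8 and 48.7 under dDAVP and 16.4, 29.3 and 12.3 under vehicle. It is 0.123 kb long and held 12 to 56 reads. All of its 50-base windows occurred once in the assembly.

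Other homeobox genes of the double or paired-like class lay near the median gene, unlike Duxf3. Of 23 listed, 21 had an interval and 0 stood at 2 times or more in each library, and the medians were 0.993 ± 0.064 and 0.990 ± 0.032 (SD, n = 2). Of the 11 with at least 40 reads in each library, Obox3 was lowest by mean density at 0.753 ± 0.270 under dDAVP and 0.962 ± 0.072 under vehicle. In edgeR 0 were called and 1 of 21, Gsc, had an unadjusted p under 0.05 (log2 ratio 2.64, adjusted p = 0.619). Over all genes tested 162 of 22469 had such a p in edgeR. Log2 ratios were above 0 in 13 and below 0 in 8, with a median of 0.13, against 11353 and 11116 and a median of 0.01 over all genes tested. Duxbl2 and Duxbl3 have the same interval and reads, so these counts hold it more than once.

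Partners and neighbours of Sfi1, such as the centrin genes, had 17 of 17 intervals and medians of 1.15 ± 0.41 and 0.862 ± 0.053 (SD, n = 2). Of them 2 stood at 2 times or more in each library, Pisd-ps1 and Pisd-ps2. Among the 13 with at least 40 reads in each library Pisd-ps1 was highest by mean density, at 13.8 ± 7.0 and 7.40 ± 1.30, and Patz1 lowest, at 1.005 ± 0.481 and 0.626 ± 0.008. Of 14 genes of phospholipid synthesis 13 had an interval and 0 stood at 2 times or more. The 10 of them with at least 40 reads in each library ran from Chka (1.12 ± 0.23 and 1.34 ± 0.02) to Ptdss1 (0.474 ± 0.280 and 0.740 ± 0.016). edgeR called 0 genes of these 2 lists, with median log2 ratios of 0.46 and −0.11. By experiment, the median density of the Sfi1 list was 0.839, 0.892 and 1.44 under dDAVP and 0.884, 0.914 and 0.825 under vehicle. Its higher level under dDAVP thus lay in experiment 3.

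Other tandem autosomal gene families with repeated sequence had medians near the median gene. Of 56 listed genes 52 had an interval, and the median share of windows occurring once was 19.3%. Their medians were 0.948 ± 0.398 times the median gene under dDAVP and 1.31 ± 0.01 under vehicle (SD, n = 2). Of these 52, 5 stood at 2 times or more in each library, where 81 of 24172 genes (0.335%) did. They were Speer4c, Speer4d and Speer4e, of a testis gene family, and Tdpoz3 and Tdpoz4, genes with BTB domains. Among the 14 with at least 40 reads in each library Speer4c was highest by mean density at 4.28 ± 2.11 and 5.41 ± 0.08, and the major urinary protein gene Mup2 lowest at 0.350 ± 0.228 and 0.543 ± 0.045. Log2 ratios were above 0 in 9 and below 0 in 43, against 11353 and 11116 over all genes tested. Their median was −0.58, and edgeR called 0. By experiment, the median density of the list was 1.21, 1.24 and 0.667 under dDAVP and 1.31, 1.30 and 1.31 under vehicle. The lower level under dDAVP thus lay mainly in experiment 3, the library that stood apart in GC. Amy2a2, Amy2a3 and Amy2a4 had identical values in each library, and so did Gm13040 and Gm13057. These counts therefore do not rest on separate genes throughout.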

How the data were processed

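Per the labels' protocols, chromatin was fixed in 1.11% formaldehyde and sheared to some 300 bp. Fragments selected at 200 to 400 bp gave reads of 50 bp, which BWA mapped to mm10. The submitters' processing notes also name SAMtools and bedtools. The authors deposited, for each RefSeq transcript taken as 1 interval with its introns, the count of reads overlapping it, the count of its bases covered, and the fraction of its bases with at least 1 read. How reads with several equal matches were placed, and whether duplicate reads or low mapping qualities were removed, is not given in the sources used here, and either choice can change the level of repeated sequence. Overlapping genes share reads.

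Of 33063 intervals, 1 was absent from vehicle experiment 2 and was left out. RefSeq and GENCODE vM21 tables of GRCm38.p6, which has the coordinates of mm10, gave symbols for 32742 intervals (99.03%). Neither named NR_046233. Density used the reads over 1 interval per gene, the longest, as the library size. For Rn4.5s, whose 10 intervals tie, reads and lengths were summed. GC classes were 20 quantile classes of genes. Windows of 50 bases were counted over the 66 sequences of the primary assembly, and copies were found with BLAST+ 2.17.0.

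Treatments were compared with edgeR 4.0.16 (TMM, filterByExpr, two-sided quasi-likelihood test, Benjamini-Hochberg adjustment over 30912 intervals at 0.05), and DESeq2 1.42.0 was the other tool. Adjusted p-values are edgeR's unless DESeq2 is named. An exact permutation test of 2 samples against 2 cannot go below p = 0.333. Tested on simulated data over 30912 intervals, edgeR found 3 of 67 changes of 2-fold, 17 of 67 of 4-fold and 49 of 66 of 8-fold, and made 5 false calls. The simulated counts were independent between intervals and held no GC preference. The members and gene lists were chosen with earlier results of these data known. Genes outside the members were named by rule: the 3 most like each member, overlapping and next neighbours, the highest and lowest of each list by mean density among genes with at least 40 reads in each library, and those behind a count of 5 or fewer. The highest gene of 1 list is not reported here. Pisd, the parent gene of the pseudogenes, and the genes bounding the members' ranks were added after their values were seen. The alternatives were another normalization, DESeq2, no count filter, 6 separate libraries, a replicate block, a GC offset, each library left out in turn, and other reference medians for density.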

Additional observations from a re-analysis of the deposited data

How the results depend on the processing

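The count of 0 called intervals was the same with DESeq2 size factors, with DESeq2, with no filter, with 6 separate libraries, with the GC offset, with either replicate block and with each library left out in turn. The log2 ratios of NR_046233, Duxf3, Sfi1 and Pisd-ps3 kept their sign in each of 15 alternatives, at 0.35 to 2.74, 0.28 to 2.56, 0.04 to 0.22 and 0.02 to 1.69. The 13 with a test stayed short of the threshold, with adjusted p from 0.546 to 1.00 (from 0.643 for Sfi1), and the values within experiments 1 and 2 and within experiment 3 have no test. With each library left out in turn they ran from 0.61 to 1.87, from 0.56 to 1.80, from 0.10 to 0.17 and from 0.25 to 1.013. Without experiment 3 of either treatment that arm has 1 sample, assumed to vary like the other treatment.

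Deviations of same-numbered libraries from their group means correlated at −0.28, −0.29 and −0.49. Experiments 1 and 2 were nearly alike, so these values mainly set experiment 3 against them. The experiment 3 libraries had the highest and lowest ratio of GC-rich to GC-poor classes, 12.003 for dDAVP and 0.396 for vehicle. The correlations therefore cannot tell whether same-numbered samples were paired. With experiment number as a replicate block edgeR called 0 intervals, and the log2 ratios were 1.57, 1.50, 0.15 and 0.88 in the same order of genes. With the block and 6 separate libraries they were 1.15, 1.13, 0.14 and 0.60.

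Over the median of the same GC class in place of the median gene, vehicle density moved to 93.5 for NR_046233, 24.6 for Duxf3, 25.2 for Pisd-ps3 and 3.73 for Rn4.5s, and dDAVP density of Sfi1 to 19.02. Over genes with at least 40 reads in each library, vehicle density of Sfi1 moved to 17.6. The cause was not tested beyond the change of reference. The other 44 values under such alternatives moved by less than 1 SD, but those for the mean over all intervals could not move. Under dDAVP that SD is wide, since it holds experiment 3, so large shifts can lie within it. Over the GC class, dDAVP density fell from 199.3 to 112.9 for NR_046233 and from 50.0 to 28.4 for Duxf3. It fell from 39.9 to 26.0 for Pisd-ps3 and from 8.38 to 4.88 for Rn4.5s. The mean over all intervals is the main value by construction. Leaving out 1 library in turn gave dDAVP densities of 85.0 to 199.5 for NR_046233, 21.4 to 50.1 for Duxf3, 19.5 to 20.4 for Sfi1, 23.8 to 39.9 for Pisd-ps3 and 3.86 to 8.60 for Rn4.5s, the lowest of each without dDAVP experiment 3. Vehicle densities were 55.9 to 66.2, 14.7 to 16.3, 18.5 to 18.96, 20.2 to 23.4 and 2.11 to 2.34. The share of Duxf3 covered with vehicle was 92.0% to 95.4%. The values within experiments 1 and 2 and within experiment 3 were alternatives chosen after seeing the data.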

Other observations

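Intervals with repeated sequence outside the members were set beside the rest. Of the 328 background intervals, the 19 with under 50% of their windows found once in the assembly had a median density of 1.04 times the median gene, as a mean over the 6 libraries, with a range of 0.00204 to 3.16. The 309 others had a median of 1.02. Among the 50 densest genes other than the members, 20 had under 50% of their windows found once and a median density of 4.43, with Pisd-ps1 highest at 9.93. The other 30 had a median of 7.95, with Vash1 highest at 28.3, and 16 of them lay on chromosome 12. These are descriptions of 1 set of libraries with no test.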
